A study of Mus musculus with 8 samples.

Results

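The genes described here are the 41 autosomal TNF ligand and receptor superfamily genes of the mouse, out of 20558 autosomal protein-coding genes in the RefSeq table of GRCm38.p6. They were taken by symbol: all Tnfrsf and Tnfsf genes with a number after the prefix, with Tnf, Lta, Ltb, Fas, Fasl, Cd27, Cd40, Cd70, Ngfr and Ltbr. Of these, 25 encode receptors and 16 encode ligands, and none was left out by a filter. The symbols say nothing of open regions, but the family itself was chosen by its counts of peaks at gene ends and of distal peaks, which were already known, so those counts are given as a description beside the same counts over all autosomal genes, with no test.

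The open regions came from ATAC-seq, in which Tn5 transposase cuts accessible DNA and leaves sequencing adapters there. All 8 samples were the mouse embryonic stem cell line RHKI, derived from E14Tg2a and carrying an HA-tagged Rnaseh1 knock-in, grown in 2i/LIF medium. The 4 control samples had no doxycycline and the 4 Dox samples had doxycycline at 500 ng/ml for 48 h, in a series whose title concerns R-loops, the RNA-DNA hybrids that RNase H1 degrades. The labels do not say whether RHKI is 1 clone or whether replicates were separate cultures. The values used here are 1 list of 76996 peaks for the whole series, each a chromosome, a start and an end, with no height and no value per sample. Dox samples were therefore not compared with controls, no count below has a replicate error, and the depth and threshold behind a missing peak are unknown. Of 8 embryonic stem cell marker genes 7 had a peak within 1 kb of an end, all but Esrrb, against 2 of 8 blood cell markers (Spi1 and Cd4) and 2 of 8 fibroblast markers (Col1a1 and Col1a2). The share over all autosomal protein-coding genes was 63.4%. The nearest peaks of Cd4 and Col1a1 were close to the 1 kb limit, at 900 and 901 bp.

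TNF superfamily ligands are trimeric proteins, most of them anchored in the membrane, that cluster their receptors on a target cell. Many receptors with a death domain recruit the adaptors TRADD or FADD and can start apoptosis, while most receptors without one bind TRAF proteins and turn on NF-kappaB. The ligands are best known from T cells, B cells and myeloid cells, and many receptors are found on lymphocytes too, while others, such as those for TNF, TWEAK and nerve growth factor, occur on epithelial, stromal or neural cells.

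Receptor genes carried open regions at their ends more often than ligand genes did in this list, and signalling genes downstream of the receptors carried them more often still. A peak that overlapped the 1 kb on either side of an outer gene bound was listed for 14 of 25 receptor genes (56%) and 4 of 16 ligand genes (25%), where 63.4% of all autosomal protein-coding genes had one. Exact 95% binomial intervals, which cover only the counting of genes, were 34.9 to 75.6% for receptors and 7.27 to 52.4% for ligands. They treat the genes as independent draws, while neighbours share peaks and the family was chosen by these counts. The intervals therefore do not test the difference between the classes. The family as a whole stood at 18 of 41 genes (43.9%), below the autosomal share. Near the limit of 1 kb, the farthest nearest peak inside it lay 472 bp from an end, at Tnfrsf23, and the closest ones outside lay at 1219 bp (Tnfsf13b) and 1320 bp (Cd27).

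**Figure D1:**
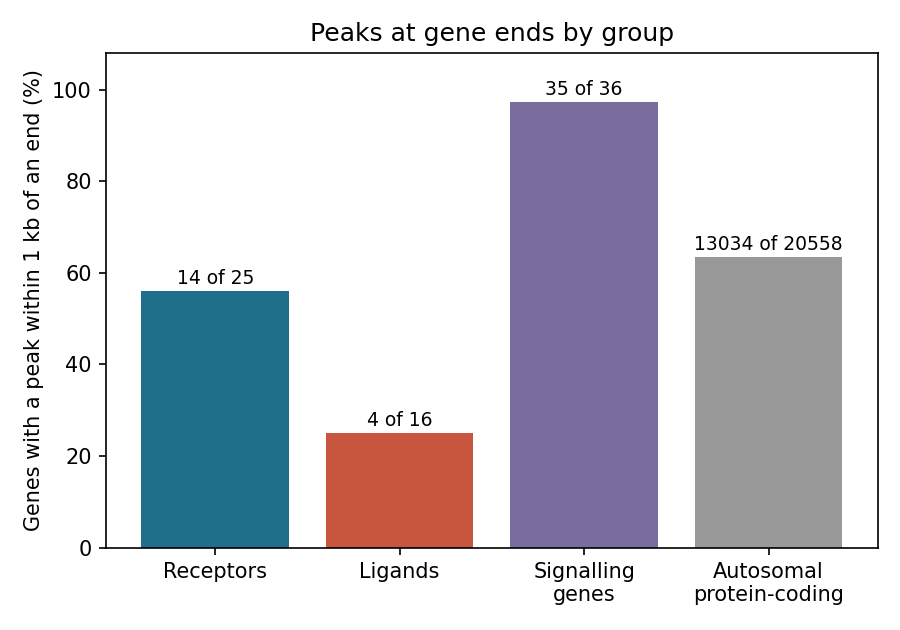
Bars give the percentage of genes with a peak within 1 kb of either outer bound, with the counts above them, for receptors, ligands, a list of signalling genes downstream of the receptors and all autosomal protein-coding genes. Ligands are lowest at 4 of 16 and signalling genes highest at 35 of 36.

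Which end carried the peak could be read for the 32 members in the RefSeq promoter table (GRCm38.p6), which gives strand and start for each gene. Cd40, Cd70, Tnfrsf10b, Tnfrsf11b, Tnfrsf22, Tnfrsf26, Tnfsf4, Tnfsf9 and Tnfsf12 had no entry. A peak within 1 kb of the most upstream listed start was present at 11 of 20 receptor genes (55%) and 2 of 12 ligand genes (16.7%), against 62.2% of the 16457 autosomal genes in that table. The start itself was covered by a peak in 8 of 20 receptor genes and 0 of 12 ligand genes, against 33.2% of the table. The 8 were Tnfrsf1a, Tnfrsf1b, Fas, Tnfrsf11a, Tnfrsf12a, Tnfrsf21, Tnfrsf23 and Ngfr. The opposite end had a peak in 3 of 20 receptor genes and 3 of 12 ligand genes, against 13.3% of the table. All 3 of those ligand genes (Tnf, Ltb and Tnfsf13) had no peak at their start, while the 3 receptor genes (Tnfrsf1a, Tnfrsf21 and Tnfrsf25) had one there as well.

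The promoters below show this contrast, from 250 bases before to 50 bases from the start onward, 5′ to 3′ on the coding strand. Capitals mark the bases that lie inside a listed peak. The 5 receptor promoters are those of both TNF receptors and of the receptors for Fas ligand, for TWEAK and of the orphan death receptor DR6, the Tnfsf11 promoter is the only ligand promoter that a peak overlapped, and the Tnf promoter had no base in a peak.
Tnfrsf1a, chr6:125349473-125349772, plus strand: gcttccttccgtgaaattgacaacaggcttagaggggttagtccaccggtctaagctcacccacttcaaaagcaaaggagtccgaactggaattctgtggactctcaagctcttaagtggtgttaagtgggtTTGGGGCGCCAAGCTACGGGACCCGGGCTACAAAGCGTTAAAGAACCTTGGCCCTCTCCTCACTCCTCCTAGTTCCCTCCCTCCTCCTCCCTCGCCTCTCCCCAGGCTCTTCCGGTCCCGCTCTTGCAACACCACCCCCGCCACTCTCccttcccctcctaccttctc
Tnfrsf1b, chr4:145246821-145247120, minus strand: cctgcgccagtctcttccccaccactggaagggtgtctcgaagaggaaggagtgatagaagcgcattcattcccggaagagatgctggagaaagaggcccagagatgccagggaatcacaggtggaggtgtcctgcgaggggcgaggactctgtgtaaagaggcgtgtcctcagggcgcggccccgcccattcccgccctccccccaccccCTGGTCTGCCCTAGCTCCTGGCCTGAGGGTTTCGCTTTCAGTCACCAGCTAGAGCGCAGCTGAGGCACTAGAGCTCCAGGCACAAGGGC
Fas, chr19:34290409-34290708, plus strand: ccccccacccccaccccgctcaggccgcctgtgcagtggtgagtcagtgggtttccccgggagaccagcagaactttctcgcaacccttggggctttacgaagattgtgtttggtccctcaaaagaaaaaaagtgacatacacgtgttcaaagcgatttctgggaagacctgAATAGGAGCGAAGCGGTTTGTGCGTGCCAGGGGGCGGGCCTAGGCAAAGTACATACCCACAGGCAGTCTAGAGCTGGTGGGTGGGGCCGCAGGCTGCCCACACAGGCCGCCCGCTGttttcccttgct
Tnfrsf12a, chr17:23677400-23677699, minus strand: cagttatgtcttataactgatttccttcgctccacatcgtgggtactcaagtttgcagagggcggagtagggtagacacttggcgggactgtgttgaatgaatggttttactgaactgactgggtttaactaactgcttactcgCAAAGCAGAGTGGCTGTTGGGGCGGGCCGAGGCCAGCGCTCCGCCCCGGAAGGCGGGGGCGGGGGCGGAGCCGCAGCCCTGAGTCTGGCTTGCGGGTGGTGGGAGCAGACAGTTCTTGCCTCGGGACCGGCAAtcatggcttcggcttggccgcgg
Tnfrsf21, chr17:43016305-43016604, plus strand: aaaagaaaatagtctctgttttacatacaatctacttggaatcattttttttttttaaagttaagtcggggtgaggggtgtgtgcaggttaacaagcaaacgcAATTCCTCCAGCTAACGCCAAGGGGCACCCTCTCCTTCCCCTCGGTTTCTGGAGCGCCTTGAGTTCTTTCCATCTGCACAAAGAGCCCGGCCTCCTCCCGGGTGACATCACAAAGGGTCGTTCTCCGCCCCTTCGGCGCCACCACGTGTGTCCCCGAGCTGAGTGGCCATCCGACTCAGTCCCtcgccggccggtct
Tnfsf11, chr14:78307994-78308293, minus strand: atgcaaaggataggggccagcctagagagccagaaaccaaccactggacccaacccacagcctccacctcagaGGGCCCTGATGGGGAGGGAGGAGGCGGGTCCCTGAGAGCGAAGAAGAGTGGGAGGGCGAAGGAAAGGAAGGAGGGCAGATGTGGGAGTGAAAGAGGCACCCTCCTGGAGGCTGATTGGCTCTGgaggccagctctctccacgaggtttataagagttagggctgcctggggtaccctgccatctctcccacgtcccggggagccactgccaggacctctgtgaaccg
Tnf, chr17:35201958-35202257, minus strand: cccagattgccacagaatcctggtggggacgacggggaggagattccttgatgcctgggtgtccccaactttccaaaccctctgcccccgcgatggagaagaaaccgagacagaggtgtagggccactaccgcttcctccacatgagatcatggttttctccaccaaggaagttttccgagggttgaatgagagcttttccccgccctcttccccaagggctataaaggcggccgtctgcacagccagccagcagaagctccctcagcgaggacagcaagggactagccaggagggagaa

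In the receptor promoters the covered stretch was a narrow block that included the start: 148 bases at Tnfrsf1a, 89 at Tnfrsf1b, 116 at Fas, 133 at Tnfrsf12a and 183 at Tnfrsf21. At Tnfsf11, which encodes the osteoclast factor RANKL, the 123 covered bases ended before the start, the peak's edge lying 55 bp outside the gene. The peak nearest to Tnf, at chr17:35199008-35199145, lay 222 bp beyond the end opposite its start, so its only peak within 1 kb was downstream of the gene.

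Ligand promoters were poor in CpG, the dinucleotide that is dense in the promoters of broadly expressed genes. The CpG observed/expected ratio had a median of 0.468 over 20 receptor promoters and 0.319 over 12 ligand promoters, against 0.597 over the whole table. A ratio of at least 0.6 was found in 6 receptor promoters, those of Tnfrsf11a (0.976), Tnfrsf21 (0.801), Tnfrsf12a (0.782), Tnfrsf19 (0.734), Ltbr (0.667) and Ngfr (0.607), and in 0 of 12 ligand promoters, against 49.8% of the table. Of these 6, all but Ltbr had a peak within 1 kb of the start, 5 of 6 against 93% of CpG-rich promoters in the table. Below that ratio, 6 of 14 receptor promoters and 2 of 12 ligand promoters had a start peak, against 31.7% of the table's CpG-poor promoters. The family had a low share of start peaks and also few CpG-rich promoters (18.8% of the 32 members with a listed promoter). The part that CpG content plays in start peaks was not tested. Ltbr, which encodes the lymphotoxin beta receptor, had a CpG-rich promoter. The peak nearest to either of its ends lay 1748 bp beyond the end opposite the start, its centre 9175 bp from that start.

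**Figure D2:**
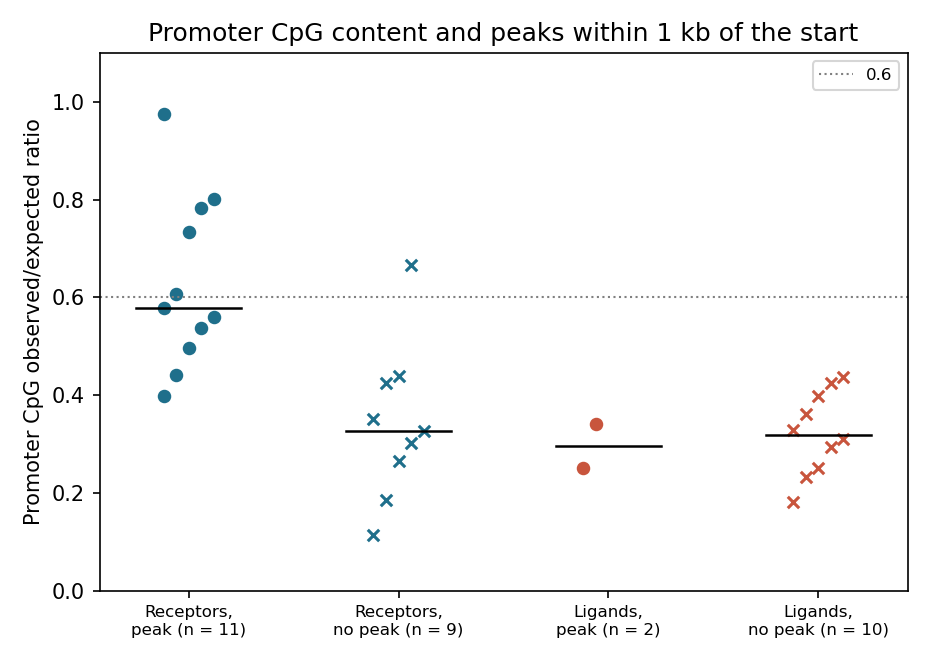
Each point is 1 promoter of 300 bases, by its CpG observed/expected ratio on the vertical axis, with genes split by class and by a peak within 1 kb of the start (filled) or none (crosses). Black lines are medians, the dotted line is the ratio of 0.6, and no ligand promoter reaches it.

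Simple sequence motifs, searched on both strands of the promoter at the most upstream start, were counted as well. The GC box GGGCGG was present in 13 of 20 receptor and 3 of 12 ligand promoters, against 47.3% of all promoters in the table. The TATA box TATAAA was present in 2 receptor promoters, those of Tnfrsf17 and Tnfrsf23, and 4 ligand promoters, those of Tnf, Lta, Tnfsf11 and Tnfsf18, against 13.5% of the table. The AP-1 motif TGACTCA was found in 5 of 32 members (4.59% of the table) and the STAT motif TTCNNNGAA in 7 of 32 (7.88%). CCAAT was found in 5 of 32 (39.1%), the NF-kappaB consensus in 2 of 32, Ltb and Tnfrsf8 (9.03%), and the octamer ATTTGCAT in 0 of 32 (1.74%). Matches of different motifs may share bases, and a match is a string of letters, not a bound site.

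The receptors are given next by role, in groups that were drawn after the values were seen, so the counts are a description only, beside 63.4% of autosomal genes. All 6 genes of death domain receptors had such a peak: Tnfrsf1a, Fas, Tnfrsf10b, Tnfrsf21, Tnfrsf25 and Ngfr. Of the 7 costimulatory receptor genes of lymphocytes, Cd40 and Tnfrsf8 had one, and Cd27, Tnfrsf4, Tnfrsf9, Tnfrsf14 and Tnfrsf18 did not. None of the 3 receptor genes for B-cell survival factors, Tnfrsf13b, Tnfrsf13c and Tnfrsf17, had one. Their nearest peaks lay 5516, 2508 and 2728 bp from a gene end, and Tnfrsf13b and Tnfrsf17 had peaks inside the gene. Among the decoy receptor genes 2 of 3 had one, Tnfrsf22 and Tnfrsf23 but not Tnfrsf11b. Of the 6 other receptor genes 4 had one, Tnfrsf1b, Tnfrsf11a, Tnfrsf12a and Tnfrsf19, while Ltbr and Tnfrsf26 did not.

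Among the death domain receptors, Tnfrsf1a (chromosome 6, 125349723 to 125362483), which encodes the main TNF receptor, had a peak at chr6:125349605-125349752 over its start and another near its other end, which was also within 1 kb of an end of Plekhg6. Fas (chromosome 19, 34290647 to 34327775), the receptor of Fas ligand, had 1 peak, at chr19:34290581-34290696 over its start. Tnfrsf10b (chromosome 14, 69767472 to 69784411), the mouse TRAIL death receptor gene, had 2 peaks inside the gene at its lower bound. Ngfr (chromosome 11, 95568818 to 95587698), which encodes the p75 neurotrophin receptor, had 1 peak of 159 bp over its start. Tnfrsf25 (chromosome 4, 152115528 to 152120119), which encodes DR3, and Tnfrsf21 (chromosome 17, 43016555 to 43089188) had 3 peaks each, the most in the family. All 3 peaks of Tnfrsf25 lay also within 1 kb of an end of a neighbour, Plekhg5 or Espn, while those of Tnfrsf21 lay near no other protein-coding gene end, and 1 of them also met the definition of a distal peak given further on.

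Beyond the death domain receptors, Tnfrsf1b (chromosome 4, 145212368 to 145246870), which encodes the other TNF receptor, and Tnfrsf12a (chromosome 17, 23675445 to 23677449), which encodes the TWEAK receptor Fn14, each had 1 peak over the start. Tnfrsf11a (chromosome 1, 105780673 to 105849444), the RANK gene, had a peak of 117 bp over its start, while Tnfrsf11b (chromosome 15, 54250619 to 54278484), which encodes the soluble decoy osteoprotegerin, had its nearest peak 180325 bp away. Tnfrsf8 (chromosome 4, 145267132 to 145315164), the CD30 gene, had 2 peaks at its start. Cd40 (chromosome 2, 165055614 to 165071654), which encodes the receptor of CD40 ligand on B cells, had a peak over its lower bound.

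Over the ligands, peaks at ends were limited to Tnf, Ltb, Tnfsf11 and Tnfsf13, and of these only Tnfsf11 (chromosome 14, 78277446 to 78308043) had its peak at the start. In Ltb (chromosome 17, 35194507 to 35196305), whose product forms heterotrimers with lymphotoxin alpha, the peak lay inside the gene near the end opposite the start. Tnfsf13 (chromosome 11, 69682577 to 69685554), which encodes the B-cell factor APRIL, had 2 peaks at the end opposite its start, both also within 1 kb of ends of Senp3 and of the readthrough gene Tnfsfm13. Tnfsf13b, which encodes the B-cell factor BAFF, had a peak at chr8:10007448-10007601 that lay within 1 kb of its listed start but just past 1 kb from its outer bound.

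Distal open regions gave the receptors the larger counts in the family. A peak was taken as distal when no end of any protein-coding gene lay within 1 kb of its centre. Each gene was given the distal peaks inside it and up to 50 kb beyond its bounds. In very long genes, none of them members, only those within 50 kb of an end were counted. Receptor genes had a median of 9 distal peaks (quartiles 6 and 12, range 0 to 19) and a mean of 8.8. Ligand genes had a median of 5 (quartiles 1.75 and 7, range 0 to 14) and a mean of 4.94, where the 20558 autosomal genes had a median of 5 and a mean of 5.47. More than 5 distal peaks were found at 19 of 25 receptor genes and 7 of 16 ligand genes, against 43.1% of autosomal genes. The classes overlapped, since 4 receptor genes had 2 or fewer and both Tnfsf12 and Tnfsf13 had 14.

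**Figure D3:**
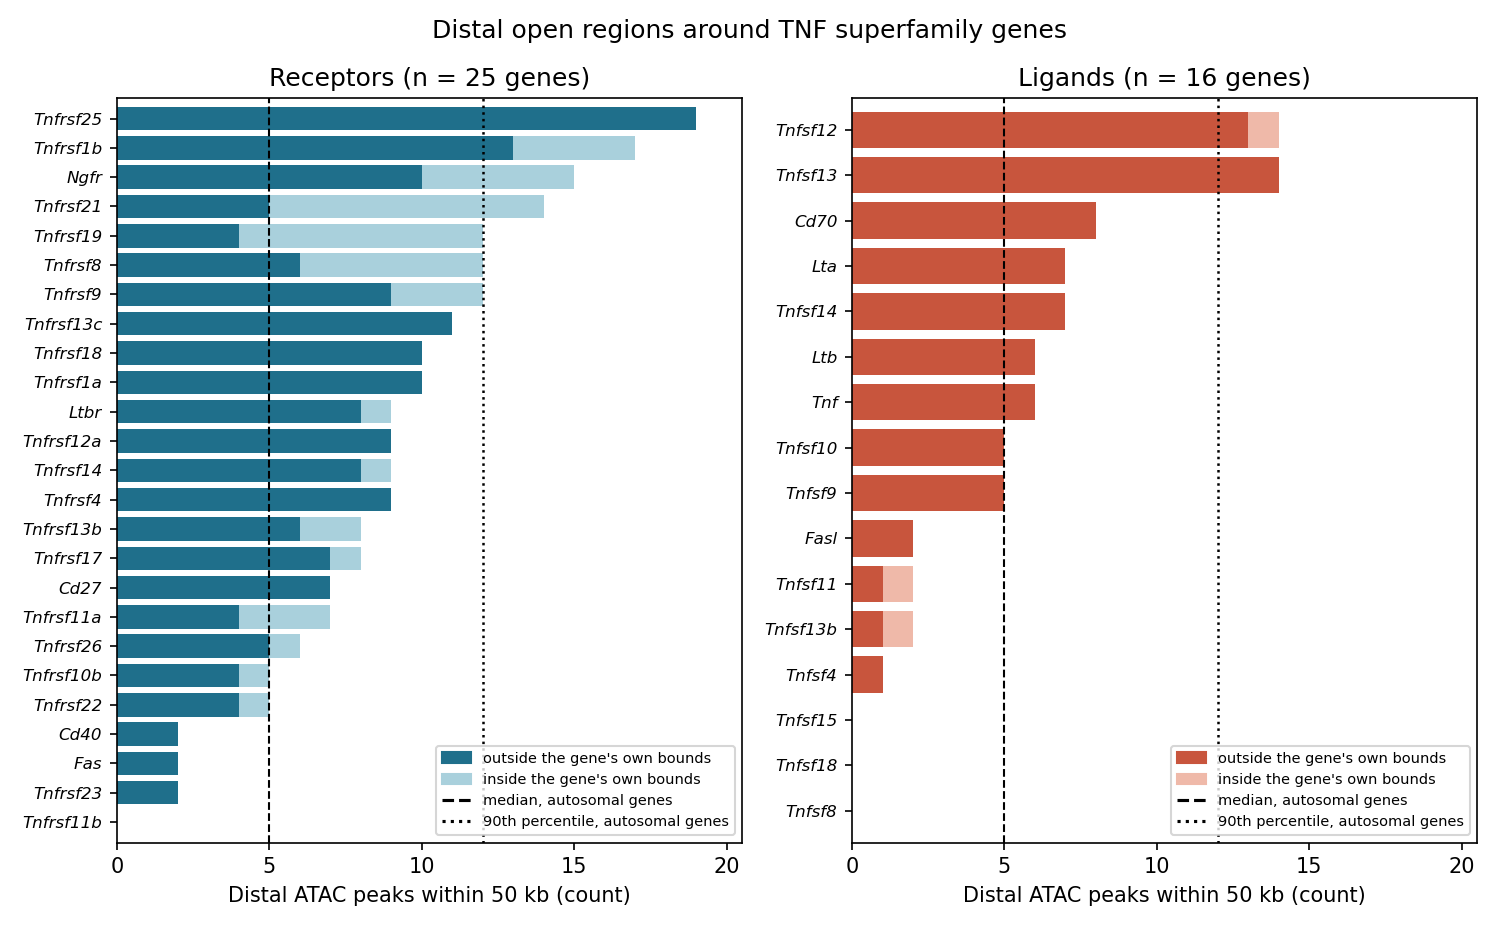
Bars give the number of distal peaks within 50 kb of each gene, receptors on the left and ligands on the right, split into peaks outside (dark) and inside (light) the gene's own bounds. The dashed line is the autosomal median of 5 and the dotted line the 90th percentile of 12, which 7 receptors and 2 ligands reach.

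In all, 2 ligand and 7 receptor genes reached 12 distal peaks, the 90th percentile of autosomal genes, a count that 10.8% of those genes reach. They were Tnfrsf25 with 19, Tnfrsf1b with 17, Ngfr with 15, Tnfrsf21 with 14, Tnfsf12 and Tnfsf13 with 14 each, and Tnfrsf8, Tnfrsf9 and Tnfrsf19 with 12 each. Just under that limit were Tnfrsf13c with 11 and Tnfrsf18 and Tnfrsf1a with 10 each. The 7 receptor genes held 101 of the 220 distal peaks counted over receptors, where 25 genes at the autosomal mean would hold 137. Their own counts exceeded the autosomal mean by 62.7 peaks in sum, out of 83.1 over all receptors. These 7 genes were picked by those same counts, so a large part of the excess falls to them by the choice itself. Without them the other 18 receptor genes had a mean of 6.61 and a median of 7.5, still above the autosomal values, with 9 at Ltbr, Tnfrsf4, Tnfrsf12a and Tnfrsf14 and 2 at Cd40, Fas and Tnfrsf23. The 14 ligand genes other than Tnfsf12 and Tnfsf13 had a mean of 3.64. A peak shared by neighbouring members counts for each of them in these sums, and the receptors' 220 were 189 distinct peaks.

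The high receptor genes differed in whether the surrounding peaks were their own. Of the 14 distal peaks of Tnfrsf21 all had Tnfrsf21 as their nearest protein-coding gene, and 9 lay inside it. Tnfrsf19 (chromosome 14, 60963834 to 61046855), which encodes the receptor TROY, was the nearest gene of 11 of its 12, with 8 inside the gene. The one at chr14:61037929-61038056, covered the downstream listed start of the gene. Tnfrsf8 was nearest for 10 of 12, with 6 inside, the widest of them 388 bp at chr4:145305692-145306079.

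Ngfr was the nearest gene for 9 of its 15 distal peaks, and 5 of them lay within the gene, at 1306, 2358, 4124, 9766 and 16676 bp from its start. Tnfrsf1b was nearest for 7 of 17, the rest lying nearer to its neighbours Tnfrsf8 and Vps13d. Tnfrsf1b and Tnfrsf8 together had 21 distinct distal peaks. Tnfrsf9 (chromosome 4, 150920155 to 150946104), which encodes the T-cell costimulator 4-1BB, was nearest for 5 of 12 and had no peak at an end.

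Tnfrsf25 was the nearest gene for 0 of its 19 distal peaks. They lay nearer to Plekhg5 (11 peaks), Espn (7) and Hes2 (1), among them peaks of 480 and 493 bp next to Espn. The 14 distal peaks of Tnfsf12 (chromosome 11, 69686240 to 69696098), which encodes TWEAK, were the same peaks as those of Tnfsf13, and 8 of them lay nearest to Tnfsf12 and the readthrough gene. With each distal peak given only to its nearest gene, receptors had a mean of 3.16 and ligands 1.44, against 2.17 for autosomal genes, but all 3 medians were 1. That count was chosen after the data were seen.

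**Figure D4:**
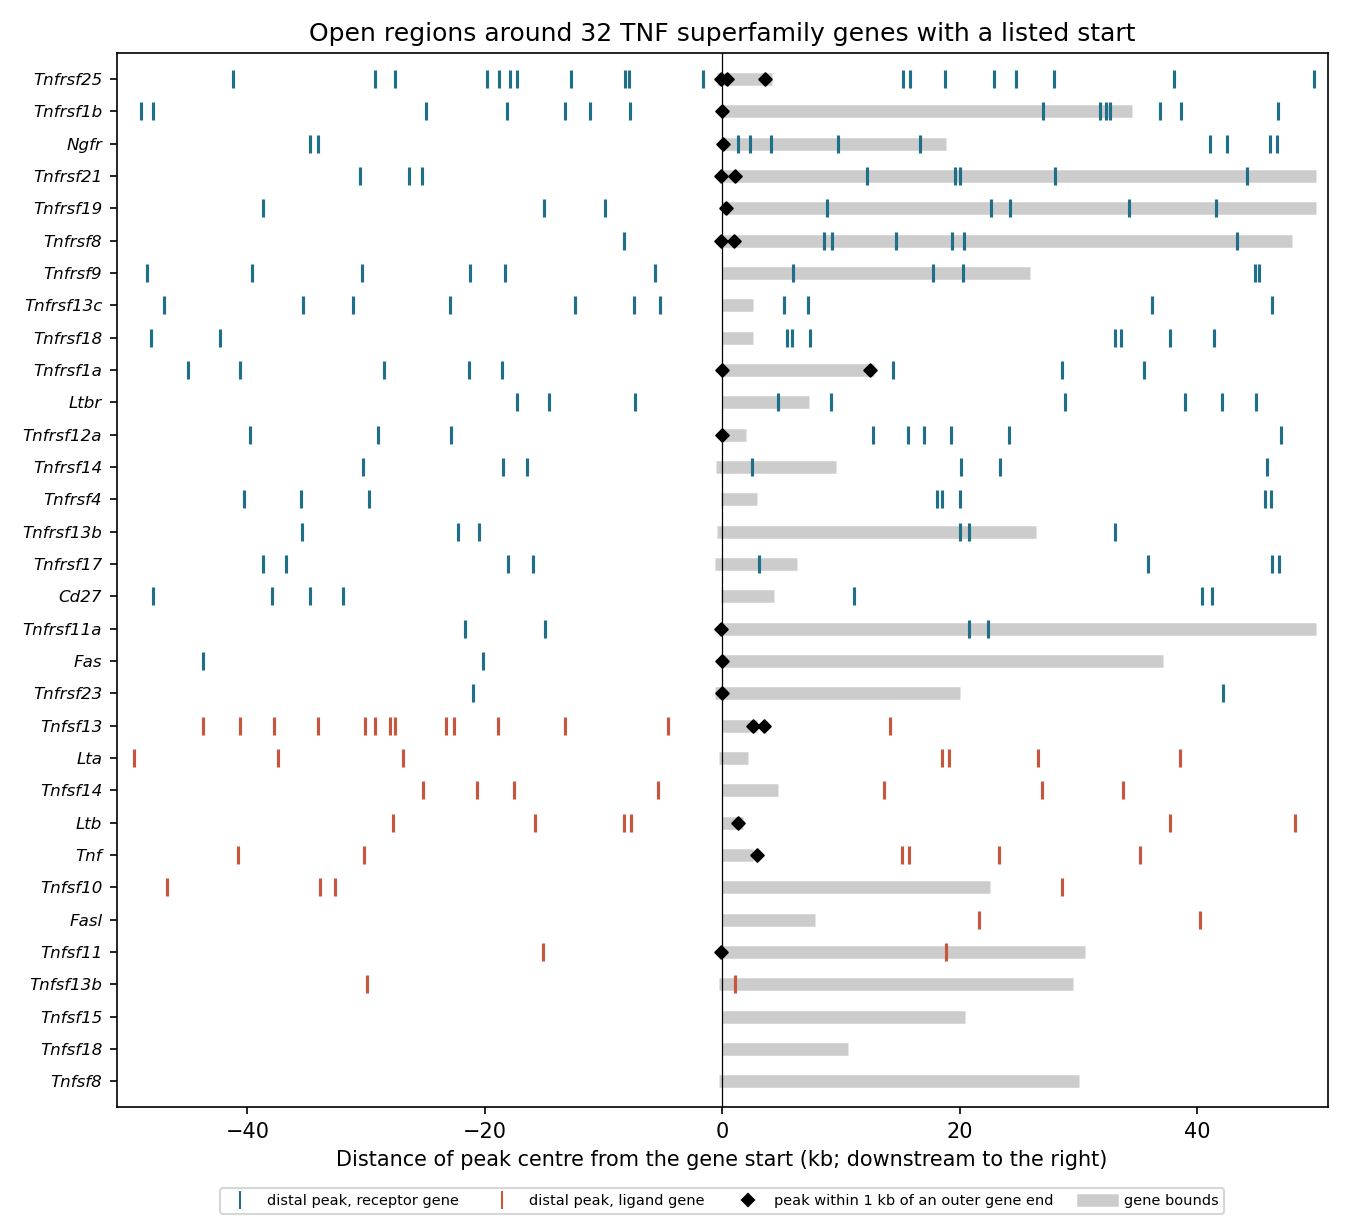
Each row is a gene with a listed start, and marks give the distance of a peak's centre from that start in kb, for 50 kb to either side and downstream to the right. Black diamonds are peaks at an outer gene end, coloured ticks are distal peaks (blue for receptors, red for ligands) and grey bars are the gene's bounds, with Tnfsf8, Tnfsf15 and Tnfsf18 showing no mark.

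Gene length and the mean number of neighbours differed between the classes, and the part that either plays in the counts was not tested. Receptor genes had a median length of 16.9 kb and ligand genes 8.83 kb, against 17.6 kb for autosomal genes. Inside their own gene lay 46 of the receptors' 220 distal peaks and 3 of the ligands' 79, against 25456 of 112544 over autosomal genes. The means per gene were 1.84, 0.188 and 1.24. Outside their own bounds receptors had a mean of 6.96 and ligands 4.75, against 4.24. Receptor genes had a mean of 2.48 other protein-coding genes within 50 kb and ligand genes 3.63, against 3.19. Autosomal genes were also grouped by that number of neighbours, in groups of unequal size because of ties, the lowest holding 5480 of 20558 genes. Genes in the same groups had means of 5.30 for the receptors and 5.49 for the ligands, beside the classes' own means of 8.8 and 4.94. Widths of the family's peaks were ordinary, with medians of 135.5 bp for 26 peaks at ends and 130.5 bp for 234 distal peaks, against 130 bp for all peaks. The widest, of 502 bp, lay at chr17:57099769-57100270 5017 bp outside Tnfsf9.

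Neighbouring members shared peaks, so the genes are not independent. The 41 genes formed 28 loci when members within 100 kb were joined, 19 of receptors and 9 of ligands. Averaged over loci, receptors had 8.95 distal peaks and ligands 4.28, with medians of 9 and 2.

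Of 4 loci with 3 members, 2 held receptors and 2 held ligands. At the Cd27, Ltbr and Tnfrsf1a locus on chromosome 6 the genes had 7, 9 and 10 distal peaks, 17 distinct ones, most of them nearest to Tuba3a, Plekhg6 or Scnn1a, and Tnfrsf1a alone had peaks at its ends. At the Tnfrsf26, Tnfrsf22 and Tnfrsf23 locus on chromosome 7 the genes had 6, 5 and 2, with end peaks at Tnfrsf22 and Tnfrsf23, which encode TRAIL decoy receptors. These are close paralogs, and the sources used here do not say how reads that match more than 1 of them were handled.

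The ligand loci with 3 members both lay on chromosome 17. At Ltb, Tnf and Lta, packed within 11.1 kb, the genes had 6, 6 and 7 distal peaks, 7 distinct ones, and for 0 of them was a ligand gene the nearest. Lta, which encodes lymphotoxin alpha, had its nearest peak 4020 bp from an end. At Tnfsf9, Cd70 and Tnfsf14 the genes had 5, 8 and 7, 12 distinct ones, with no peak at an end. Their products, 4-1BB ligand, CD70 and LIGHT, act on lymphocytes.

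In all, 4 of 41 members had no distal peak (9.76%, against 13.1% of autosomal genes). The same 4 had no peak at an end, a combination that was not counted over autosomal genes. They were the ligand genes Tnfsf8 (chromosome 4, 63831202 to 63861508), Tnfsf15 (chromosome 4, 63724600 to 63745059) and Tnfsf18 (chromosome 1, 161494657 to 161505290) and the receptor gene Tnfrsf11b. The distance to the closest peak was 155623 bp for Tnfsf8, 164188 bp for Tnfsf15, 114753 bp for Tnfsf18 and 180325 bp for Tnfrsf11b, and all 4 had no other protein-coding gene within 50 kb. Tnfsf4, the OX40 ligand gene beside Tnfsf18, had 1 distal peak, and Fasl had 2, with its nearest peak 13797 bp from an end.

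Known ligand and receptor pairs were set side by side. The list, drawn by hand, held 21 pairs of 15 ligand and 18 receptor genes and is not complete. Over these pairs the receptor gene had more distal peaks in 14, the ligand gene in 5, and 2 were equal. The widest gaps were at Tnfsf15 with 0 and its receptor gene Tnfrsf25 with 19, and at Tnfsf8 with 0 and Tnfrsf8 with 12. Tnf had 6, against 10 at Tnfrsf1a and 17 at Tnfrsf1b. The order was turned at Tnfsf12 with 14 against 9 at Tnfrsf12a, at Tnfsf13 with 14 against 8 at both Tnfrsf13b and Tnfrsf17, at Cd70 with 8 against 7 at Cd27, and at Tnfsf11 with 2 against 0 at Tnfrsf11b. Fasl and Fas had 2 each, and Tnfsf10, the TRAIL gene, and Tnfrsf10b had 5 each. For peaks at gene ends over the same pairs, the receptor gene alone had one in 5, the ligand gene alone in 4, both in 3 and neither in 9. Lta, with no peak at an end, and Tnfrsf22 and Tnfrsf23, with 1 each, were in no listed pair. The counts thus depend on the pairs listed. Pairs share genes and peaks and are no replicates.

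Downstream of the receptors, 35 of 36 signalling genes had a peak at an end (97.2%, against 63.4% of autosomal genes). They include the adaptor genes Tradd and Fadd, the kinase gene Ripk1, the caspase gene Casp8 and its regulator gene Cflar, and all 6 Traf genes of the list. The gene without one was Xiap on chromosome X, which encodes an inhibitor of caspases and had its nearest peak 8364 bp from an end. Distal peaks had a median of 6 and a mean of 7.53 over the list, against 5 and 5.47 over autosomal genes. Of its 36 genes 7 reached 12, which 10.8% of autosomal genes reach: Nfkbie with 19, Nfkbia and Nfkb1 with 16, Traf4 with 14, Tab1 and Traf1 with 13, and Relb with 12. Nfkbia and Nfkbie encode inhibitors of NF-kappaB, and Nfkb1 and Relb subunits of it.

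Superfamily genes that the symbols did not take in had peaks at ends in 4 of 5 cases, beside 63.4% of autosomal genes. Edar, the ectodysplasin receptor gene, had 3 and Relt 2, and on chromosome X the ectodysplasin gene Eda and the receptor gene Eda2r had 2 each. Cd40lg, the CD40 ligand gene on X, had none, with its nearest peak 13826 bp from an end.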

How the data were processed

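ATAC-seq was done on 4 control and 4 Dox samples of RHKI cells. Build GRCm38 and the tools HOMER 4.11, deepTools 3.5.1, SAMtools 1.16.1, Bowtie2 2.5.0, Trimmomatic 0.39 and Picard 2.10.9 are named per the submitters' processing notes, with no roles. The sources used here do not give the peak caller, its threshold or any pooling of samples. The authors deposited peak positions in 3 columns and no value per sample, so the planned test of Dox against control was not run. Positions printed are counted from 1.

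Genes on scaffolds and patches were left out, which left 21774 protein-coding genes on chromosomes. Overlap with a window at an end needed 1 bp. Distal peaks numbered 60115. Promoters of 300 bases came from RefSeq (GRCm38.p6), matched by gene ID for 32 of 41 members, of which 4 had more than 1 listed start. The CpG observed/expected ratio is the number of CpG times the length over the product of C and G counts, with 0.6 taken as CpG-rich. Members, lists and comparisons were chosen with earlier results of these data known. Named genes are members at or above the 90th percentile of distal peaks, those with most peaks at ends, those with none, and members of loci of 3. Receptor roles, ligand and receptor pairs and the signalling list came from textbook knowledge. The counting was tested on simulated data against a direct count. Alternatives were windows of 500 bp, 2 kb and 5 kb, peak centres, wide peaks, the start alone, reaches of 20 kb and 100 kb, other definitions of distal and loci counted once. Python 3.11.15, NumPy 2.4.6, SciPy 1.17.1, pandas 2.3.3 and matplotlib 3.10.9 were used.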

Additional observations from a re-analysis of the deposited data

How the results depend on the processing

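Receptors had the higher mean number of distal peaks under each of the 8 alternatives tried, with a ratio to ligands of 1.47 (outside the gene's own bounds) to 2.20 (nearest gene only), against 1.78 as reported. The number of members at or above the 90th percentile ran from 6 to 11 over 7 alternatives, against 9, with the limit set anew each time and 10.2 to 13.3% of autosomal genes at or above it. Among these members Tnfrsf1b kept that rank in all 7, whereas Tnfrsf19 lost it in 5, Tnfrsf9 and Tnfsf13 in 4 each, Tnfrsf21 and Tnfsf12 in 2 each, and Ngfr, Tnfrsf25 and Tnfrsf8 in 1 each. Other members gained it: Tnfrsf13c and Tnfrsf1a in 3 each, Tnfrsf4, Tnfrsf12a and Tnfrsf18 in 2 each, and Tnfrsf13b in 1, so which genes carry the high counts changes with the setting. Within 100 kb 6 receptors and 0 ligands reached it (10.2% of autosomal genes), and with only peaks wider than the median 10 receptors and 0 ligands did (11.9%). With a 5 kb window 68.3% of members had a peak at an end (75.9% of autosomal genes), 21 of 25 receptors and 7 of 16 ligands. Receptors thus stood above the autosomal share with that window, but below it as reported (14 of 25, against 63.4%). With only peaks wider than the median 24.4% did (42.7% of autosomal genes), 8 receptors and 2 ligands. At the start alone, 2 ligands had a peak. No paired analysis was possible because the peak list has no value per sample, and the planned fits with a replicate block, without single replicates, with DESeq2 and without a filter on low counts were not run for the same reason. Depth and precision per sample are unknown, so the absence of a peak does not show closed chromatin.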
